A study of Homo sapiens with 6 samples.

Results

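Amino acid transporters of 7 solute carrier (SLC) families were followed in AF22, an established human neural stem cell line of induced pluripotent origin. The members were all gene symbols of the families SLC1, SLC3, SLC6, SLC7, SLC36, SLC38 and SLC43 in the deposited count tables, except SLC1A3, which was left out. They came to 58 of 26485 symbols. The SLC6 family also holds carriers of neurotransmitters, taurine and creatine, so not every member carries an amino acid. Knockdown cells were AF22 cells whose genotype label names a knockdown of both COMMD3 and COMMD3-BMI1 (3 libraries), with no reagent described. Control cells were AF22 cells with shControl, a control short hairpin RNA, and are labelled as wild type (3 libraries). Nothing in the labels says that the replicates were grown apart, so the p-values refer to spread between libraries that may be technical. All libraries came from a single cell line, and in bulk RNA fewer cells of a type and less RNA per cell cannot be told apart.

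Amino acid carriers of the plasma membrane bring in nutrients, exchange amino acids against each other and clear transmitters from around cells. Carriers on the lysosome return amino acids to the cytosol and report their supply to the growth kinase mTORC1. When amino acids run short, the kinase GCN2 phosphorylates the initiation factor eIF2, and the transcription factor ATF4 then raises genes of amino acid uptake and synthesis, several of these carriers among them. In neural progenitors, carriers such as the LAT1 heterodimer supply large neutral amino acids, and cystine uptake feeds glutathione synthesis.

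Each library held between 7294687 and 11579849 counts, and the 58 genes took between 0.254% and 0.282% of them. COMMD3 had 12.9, 11.3 and 10.5 CPM (read counts normalised to library size by TMM) in knockdown replicates 1 to 3, against 31.7, 29.7 and 27.6 CPM in control replicates 1 to 3. It fell with a log2 fold change of −1.37 (SE 0.0996, adjusted p = 2.35e-12 by edgeR), while COMMD3-BMI1 was listed at 0 in all 6 libraries. How reads were counted is not given, so this 0 does not tell whether COMMD3-BMI1 was expressed or reduced. BMI1 did not pass (log2 fold change −0.07, adjusted p = 0.206 by edgeR). Of 11 neural stem cell markers 10 were expressed enough to be tested, SOX1, SOX2, NES and PAX6 among them, and HES5 was listed at 0. Of the 10, SOX2 (log2 fold change −0.15), PROM1 (−0.26) and ZBTB16 (−0.52) fell, MSI1 (0.13) rose and 6 did not pass, against 18.1% of all tested genes called lower and 15.3% higher. The summed level of the 11, most of it VIM and NES, was 2475 to 2554 CPM in knockdown and 2437 to 2592 CPM in control. Of 5 pluripotency markers 2 were tested, of which 1 fell and 1 did not pass. POU5F1 was lower in knockdown, at 45.7 ± 4.02 CPM in knockdown and 59.1 ± 2.28 CPM in control (SD, n = 3 each; adjusted p = 2.55e-05 by edgeR). DPPA4, the most abundant, did not pass, at 170 ± 7.95 CPM in knockdown and 171 ± 3.37 CPM in control (adjusted p = 0.85 by edgeR). NANOG had between 0 and 0.233 CPM, ZFP42 between 0 and 0.114 CPM, and TDGF1 was listed at 0. GFAP (astrocytes), STMN2 (neurons) and SOX10 (oligodendrocyte lineage) were listed at 0 in all libraries, while other markers of each of these lists were expressed. GJA1 (astrocytes) had 312 ± 6.92 CPM in knockdown and 283 ± 9.15 CPM in control (SD, n = 3 each). MAP2 (neurons) had 497 ± 7.73 and 535 ± 23.5 CPM, and PDGFRA (oligodendrocyte lineage) 14.7 ± 0.784 and 16.3 ± 0.867 CPM, in the same order.

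Of the 58 transporter genes, 31 passed the filter on low counts and were tested. Among these, 9 rose, 4 fell and 18 did not pass (quasi-likelihood test of edgeR, with an adjusted p under 0.05 by Benjamini-Hochberg over all tested genes). Called genes thus made up 41.9% of the tested transporters, against 33.3% of all 13632 genes tested. The higher direction was called for 15.3% of all tested genes and the lower for 18.1%. The median log2 fold change was 0.06 over the tested transporters and 0 over all tested genes. The median size of a log2 fold change, without its sign, was 0.15 over the tested transporters and 0.14 over all tested genes. The groups' libraries did not overlap for 15 of the 31 genes, a share near the 44.3% of all tested genes. The changes were small. The 9 higher genes were between 1.11 and 1.87-fold higher in knockdown, the 4 lower genes between 1.13 and 1.66-fold lower, and 3 of the 13 changed by 1.5-fold or more.

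**Figure D1:**
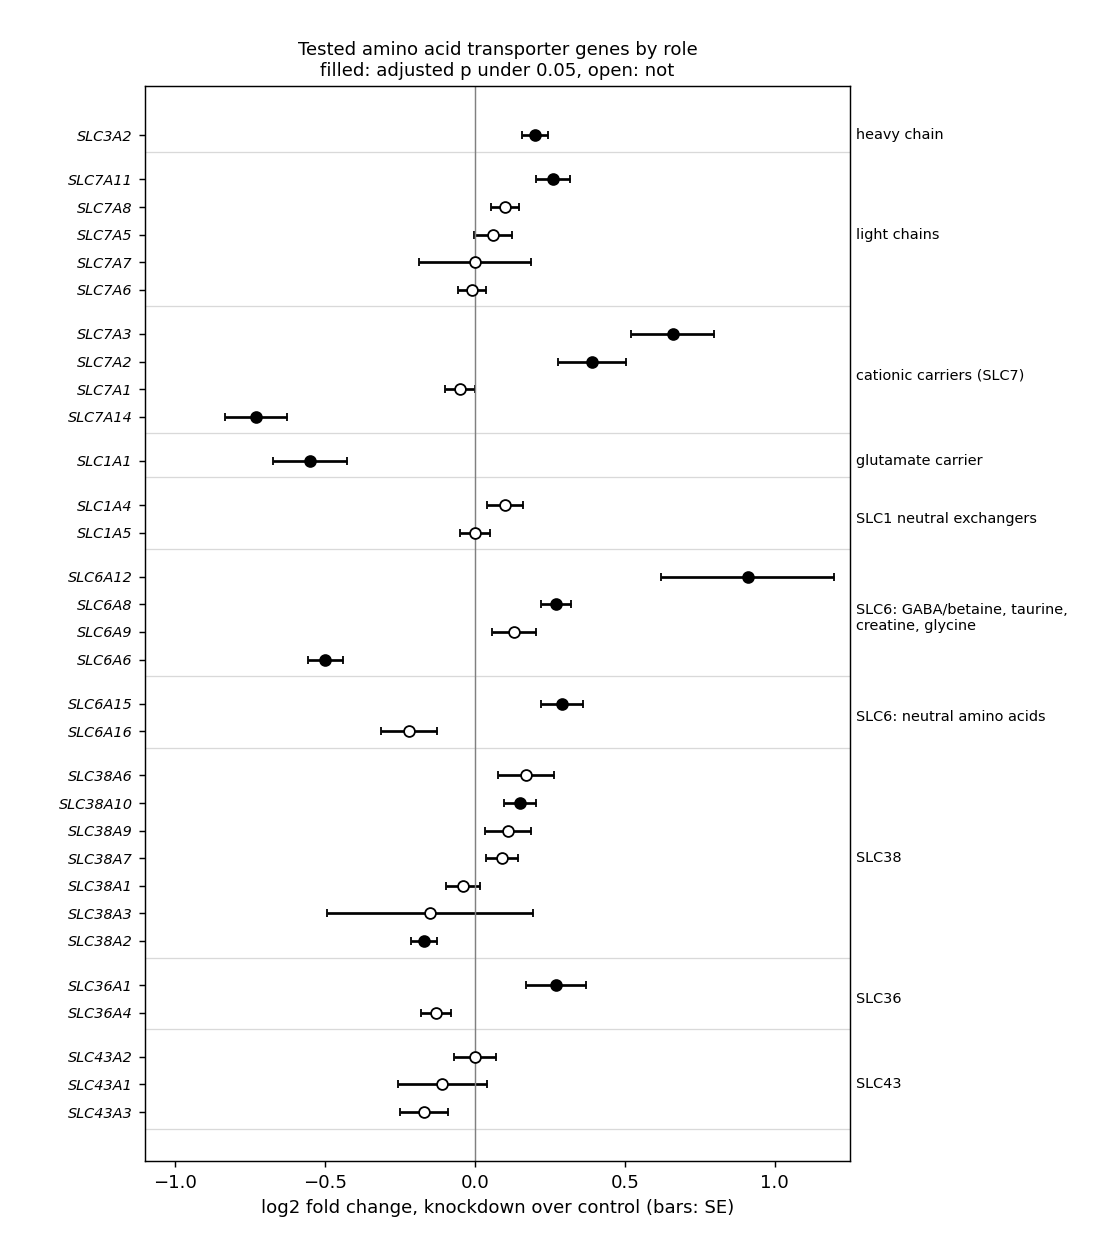
Log2 fold changes of the 31 tested transporter genes, knockdown over control, with standard errors, grouped by role. Filled points passed the test, and they lie between −0.73 (SLC7A14) and 0.91 (SLC6A12), on both sides of 0.

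The other 27 transporter genes were too low to be tested. Of these, 11 had no count in any library, where 3 counts as a floor allow up to between 0.259 and 0.42 CPM per library. The 11 include the GABA carrier SLC6A11, the noradrenaline carrier SLC6A2 and the glycine carrier SLC6A5. The other 16 had at most 44 counts over the 6 libraries. SLC1A2, the main glutamate carrier of astrocytes, had 21 counts over the knockdown libraries and 23 over the control libraries. The serotonin carrier SLC6A4 had 6 counts in knockdown and 7 in control. SLC3A1, the partner chain of the renal cystine carrier, had 4 counts in knockdown and 5 in control.

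The heavy chain SLC3A2 rose. It encodes CD98hc (4F2hc), the glycoprotein that takes the light chains LAT1, LAT2, y+LAT and xCT to the plasma membrane. SLC3A2 had 198, 204 and 211 CPM in knockdown replicates 1 to 3, against 175, 175 and 186 CPM in control replicates 1 to 3. Every knockdown library was above every control library, by a fold of 1.15 between the groups (log2 fold change 0.20, SE 0.0444, adjusted p = 0.000812 by edgeR). The gene maps to chromosome 11 (62856102 to 62888875, plus strand) in GRCh38 by GENCODE release 29.

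The promoter of SLC3A2 is shown because it holds the core of a C/EBP-ATF response element, the DNA site through which ATF4 acts. The core searched was TGATGNAA on both strands, in windows of 250 bases before to 50 bases after each gene's start, from RefSeq (GRCh38.p14). That table had a promoter for 23 tested transporter genes, among them 4 of the 9 higher and 3 of the 4 lower genes. The higher genes SLC7A11, SLC7A2, SLC7A3, SLC6A12 and SLC6A15 and the lower gene SLC6A6 had none and were not searched. Among the 23 searched, 3 held the letters. SLC3A2 rose, and SLC38A1 and SLC7A1 did not pass the test. Their windows are given 5′ to 3′ with the matched letters in capitals, on the minus strand of the window for SLC3A2 and on the plus strand for the other genes. They lie at chr11:62881449-62881748 (plus strand), chr12:46266467-46266766 (minus strand) and chr13:29595639-29595938 (minus strand).
SLC3A2: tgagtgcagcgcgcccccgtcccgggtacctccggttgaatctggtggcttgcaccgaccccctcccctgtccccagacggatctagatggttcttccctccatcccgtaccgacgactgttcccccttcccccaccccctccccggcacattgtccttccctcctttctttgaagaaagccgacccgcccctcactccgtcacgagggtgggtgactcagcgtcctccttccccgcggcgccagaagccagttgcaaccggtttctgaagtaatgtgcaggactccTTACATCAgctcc
SLC38A1: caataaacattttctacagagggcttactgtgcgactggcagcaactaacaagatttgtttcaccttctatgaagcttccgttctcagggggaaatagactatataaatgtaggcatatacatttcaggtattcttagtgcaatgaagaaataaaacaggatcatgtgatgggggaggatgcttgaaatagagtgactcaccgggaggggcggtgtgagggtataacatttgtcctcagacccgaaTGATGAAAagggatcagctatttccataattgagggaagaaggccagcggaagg
SLC7A1: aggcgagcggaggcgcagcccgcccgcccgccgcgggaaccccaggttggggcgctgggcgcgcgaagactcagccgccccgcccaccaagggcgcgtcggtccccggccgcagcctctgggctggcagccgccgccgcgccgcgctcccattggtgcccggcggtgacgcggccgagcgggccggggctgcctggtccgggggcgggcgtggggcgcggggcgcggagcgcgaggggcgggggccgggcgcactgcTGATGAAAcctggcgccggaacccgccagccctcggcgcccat
The match begins 37 bases after the gene's start in SLC3A2, 7 bases after it in SLC7A1 and 4 bases before it in SLC38A1. The RefSeq starts of SLC3A2 and SLC38A1 lie inside the genes as GENCODE draws them, so other starts of these genes were not searched. Of all 27305 promoters of that length 3.67% hold the letters, and of the 10130 promoters of tested genes 1.6%. A match of these letters is a description and not a measured binding site.

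Of 5 tested light chains, which carry the amino acids in the heterodimer, SLC7A11 rose and 4 did not pass. SLC7A11 encodes xCT, which takes up cystine in exchange for glutamate. Its level was 203, 195 and 240 CPM in knockdown replicates 1 to 3, against 188, 172 and 175 CPM in control replicates 1 to 3. The groups did not overlap, and knockdown replicate 3 stood above the other libraries. The log2 fold change was 0.26 (SE 0.0562, adjusted p = 0.000683 by edgeR), and without knockdown replicate 3 it was 0.16 (adjusted p = 0.0132 by edgeR). SLC7A11 maps to chromosome 4 (138164097 to 138242349, minus strand), and 9.0% of its exon bases are also covered by SLC7A11-AS1 on the other strand.

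SLC7A5 encodes LAT1, the main carrier of leucine and other large neutral amino acids. It had 195, 203 and 254 CPM in knockdown replicates 1 to 3, against 201, 206 and 221 CPM in control replicates 1 to 3. The knockdown libraries spread on both sides of the control libraries, and the difference did not pass (log2 fold change 0.06, SE 0.0625, adjusted p = 0.480 by edgeR). SLC7A8, which encodes LAT2, had 153 ± 5.57 CPM in knockdown and 143 ± 7.54 CPM in control (SD, n = 3 each; adjusted p = 0.104 by edgeR), and it was called higher without control replicate 2 (log2 fold change 0.14, adjusted p = 0.0475 by edgeR). SLC7A6 (y+LAT2) had a log2 fold change of −0.01 (SE 0.0461), and 55.6% of its exon bases are shared with genes on the other strand. SLC7A7 (y+LAT1) was low, at 6.28 ± 1.30 CPM in knockdown and 6.55 ± 1.84 CPM in control (adjusted p = 0.989 by edgeR).

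The cationic amino acid transporters carry arginine and lysine without a heavy chain. Of the 4 tested genes grouped here, SLC7A3 and SLC7A2 rose and SLC7A1 did not pass. The 1 that fell was SLC7A14, a relative of these carriers. SLC7A3 (CAT3) had 11.7, 15.3 and 18.0 CPM in knockdown replicates 1 to 3, against 8.55, 9.60 and 10.8 CPM in control replicates 1 to 3. All knockdown libraries were higher, and they spread more widely than the control libraries. The log2 fold change was 0.66 (SE 0.139, adjusted p = 0.000431 by edgeR), and it lay between 0.50 without knockdown replicate 3 and 0.82 without knockdown replicate 1. SLC7A3 maps to chromosome X (70925582 to 70931125, minus strand).

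SLC7A2 (CAT2) had 14.9, 17.9 and 14.6 CPM in knockdown replicates 1 to 3, against 12.3, 12.2 and 11.5 CPM in control replicates 1 to 3. It rose with a log2 fold change of 0.39 (SE 0.114, adjusted p = 0.0092 by edgeR). This call was lost without knockdown replicate 2 (adjusted p = 0.0839 by edgeR) and by DESeq2 (adjusted p = 0.0643). SLC7A2 maps to chromosome 8 (17497088 to 17570573, plus strand). SLC7A1 (CAT1), the most abundant of the tested cationic carriers per exon length, had 217 ± 16.6 CPM in knockdown and 225 ± 11.7 CPM in control (SD, n = 3 each). Its difference did not pass (log2 fold change −0.05, adjusted p = 0.435 by edgeR).

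SLC7A14, a relative of the cationic carriers found on lysosomes, had the largest fall among the 31 tested transporter genes. It had 11.4, 13.04 and 13.06 CPM in knockdown replicates 1 to 3, against 21.5, 20.5 and 19.9 CPM in control replicates 1 to 3. The highest knockdown library was well below the lowest control library, with a log2 fold change of −0.73 (SE 0.103, adjusted p = 1.76e-06 by edgeR). The gene maps to chromosome 3 (170459584 to 170586074, minus strand).

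SLC1A1 was the only glutamate carrier of the set with enough counts to be tested, and it fell. It encodes EAAT3, a carrier of glutamate, aspartate and cysteine found in neurons. SLC1A1 had 11.2, 10.4 and 14.2 CPM in knockdown replicates 1 to 3, against 15.6, 20.3 and 16.8 CPM in control replicates 1 to 3. The groups did not overlap, though knockdown replicate 3 came close to control replicate 1, and the log2 fold change was −0.55 (SE 0.124, adjusted p = 0.000942 by edgeR). Of 7 neuron markers 4 were tested, with log2 fold changes between −0.13 and −0.10 and an adjusted p of 0.0586 or more by edgeR. The summed level of the 7, most of it MAP2, was 643 to 672 CPM in knockdown and 690 to 738 CPM in control. Whether neuron-like cells have a part in the fall of SLC1A1 was not tested. SLC1A1 maps to chromosome 9 (4490444 to 4587469, plus strand).

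The 3′ UTR of SLC1A1 holds the word TCATCCA, which an earlier scan of these data over all 3′ UTRs had singled out by its low fold changes. Of 12112 tested genes with a 3′ UTR in GENCODE release 29, 1695 (14%) hold it, and 36.8% of these fell, against 15.8% of the genes without it. Since the word was picked on these values, these shares are a description. Among the 31 tested transporter genes 2 hold it, SLC1A1, which fell, and SLC6A15, which rose. The 2 sites are shown 5′ to 3′ with the word in capitals and 10 bases on each side.
SLC1A1: ggatgtgcttTCATCCAactggaaggc
SLC6A15: ccaactgtggTCATCCAgagaagctca
The site spans bases 1023 to 1029 of the 1911-base 3′ UTR of SLC1A1, and bases 1553 to 1559 of the 2900-base 3′ UTR of SLC6A15. The other 3 transporter genes that fell, SLC7A14, SLC6A6 and SLC38A2, do not hold the word in the transcript with the longest 3′ UTR.

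The neutral exchangers of the SLC1 family did not pass. SLC1A5 (ASCT2), which exchanges glutamine and other neutral amino acids, had 202, 207 and 235 CPM in knockdown replicates 1 to 3, against 202, 224 and 220 CPM in control replicates 1 to 3. Its groups overlapped and the log2 fold change was 0.00 (SE 0.0512, adjusted p = 0.989 by edgeR). Of its exon bases 23.8% are also covered by genes on the other strand. SLC1A4 (ASCT1), a carrier of serine and alanine, had 62.5 ± 4.81 CPM in knockdown and 58.5 ± 2.16 CPM in control (SD, n = 3 each; adjusted p = 0.184 by edgeR).

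**Figure D2:**
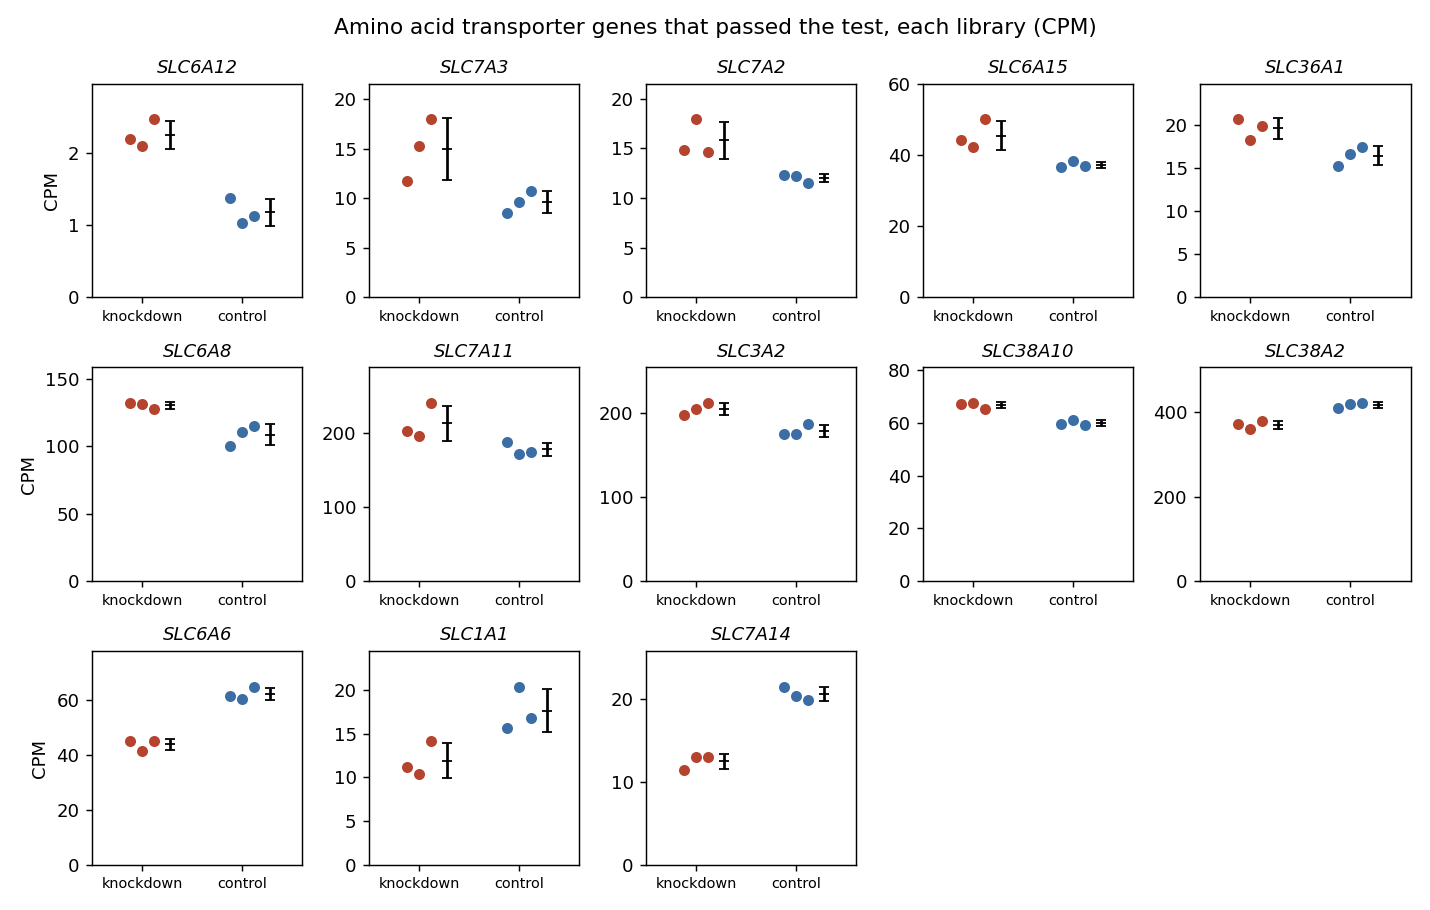
CPM of each library for the 13 transporter genes that passed the test, ordered by log2 fold change, with knockdown left of control. Points are libraries in replicate order and bars give the mean and SD (n = 3). The groups do not overlap in any of the 13 panels, which were picked by the test on these same libraries. Of all tested genes, 44.3% had no overlap.

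In the SLC6 family, taurine and creatine carriers moved in opposite directions. SLC6A6 encodes TauT, which takes up taurine, an osmolyte and abundant free amino acid of the brain. It had 45.1, 41.7 and 45.2 CPM in knockdown replicates 1 to 3, against 61.5, 60.5 and 64.9 CPM in control replicates 1 to 3. It had the smallest p among the transporter genes, with a log2 fold change of −0.50 (SE 0.0589, adjusted p = 8.41e-08 by edgeR). The gene maps to chromosome 3 (14402576 to 14489349, plus strand).

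SLC6A8, the creatine carrier, had 132, 131 and 127 CPM in knockdown replicates 1 to 3, against 100.2, 110.2 and 115 CPM in control replicates 1 to 3. All knockdown libraries lay above the control libraries, which spread more widely. SLC6A8 rose with a log2 fold change of 0.27 (SE 0.0488, adjusted p = 5.83e-05 by edgeR). It maps to chromosome X (153688099 to 153696593, plus strand).

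SLC6A12 (BGT1), a carrier of betaine and GABA, had the largest log2 fold change of the tested transporter genes and the lowest level among those called. It had 21, 18 and 24 counts in knockdown replicates 1 to 3, against 16, 9 and 8 counts in control replicates 1 to 3, or 2.20, 2.10 and 2.47 CPM against 1.38, 1.03 and 1.12 CPM. The log2 fold change was 0.91 (SE 0.289, adjusted p = 0.0156 by edgeR). The control libraries lie near the filter on low counts, which the gene passed through its knockdown libraries, and such a gene is more likely to be called higher. The call was lost by DESeq2 (adjusted p = 0.133), without control replicate 2 (adjusted p = 0.0611 by edgeR) and without knockdown replicate 3 (adjusted p = 0.0506 by edgeR). SLC6A12 maps to chromosome 12 (190077 to 214570, minus strand).

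SLC6A15, a neuronal carrier of proline and branched-chain amino acids, had 44.3, 42.3 and 50.2 CPM in knockdown replicates 1 to 3, against 36.7, 38.3 and 37.0 CPM in control replicates 1 to 3. It rose with no overlap between the groups (log2 fold change 0.29, SE 0.0692, adjusted p = 0.00143 by edgeR). The gene maps to chromosome 12 (84859488 to 84913615, minus strand). SLC6A9 (GlyT1), the glial glycine carrier, had 47.1 ± 4.80 CPM in knockdown and 43.3 ± 3.63 CPM in control (SD, n = 3 each; adjusted p = 0.190 by edgeR), and it was called higher without knockdown replicate 1 (log2 fold change 0.21, adjusted p = 0.0308 by edgeR). The orphan carrier SLC6A16 had a log2 fold change of −0.22 (SE 0.0945, adjusted p = 0.0767 by edgeR), and it was called lower without control replicate 1 (−0.28, adjusted p = 0.0494 by edgeR) and without knockdown replicate 2 (−0.29, adjusted p = 0.0399 by edgeR).

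The sodium-coupled neutral carriers of the SLC38 family had 7 tested genes, of which 1 rose, 1 fell and 5 did not pass. SLC38A2 encodes SNAT2, a carrier of alanine, glutamine and other small neutral amino acids that amino acid starvation and hypertonic stress are known to induce. It had 373, 360.0 and 378 CPM in knockdown replicates 1 to 3, against 410.0, 420 and 422 CPM in control replicates 1 to 3. SLC38A2 fell, with a log2 fold change of −0.17 (SE 0.0427, adjusted p = 0.00231 by edgeR), and its libraries were close together within each group. It maps to chromosome 12 (46358189 to 46372867, minus strand).

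SLC38A1 (SNAT1), the related glutamine carrier of neural cells, had 180, 183 and 223 CPM in knockdown replicates 1 to 3, against 201, 199 and 203 CPM in control replicates 1 to 3. Knockdown replicates 1 and 2 were below all control libraries and knockdown replicate 3 above them. The difference did not pass (log2 fold change −0.04, SE 0.0558, adjusted p = 0.631 by edgeR). Without knockdown replicate 3 it was called lower, with a log2 fold change of −0.14 (adjusted p = 0.021 by edgeR).

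SLC38A10 had 67.1, 67.6 and 65.5 CPM in knockdown replicates 1 to 3, against 59.7, 61.1 and 59.1 CPM in control replicates 1 to 3. It rose by the smallest step among the called genes (log2 fold change 0.15, SE 0.0525, adjusted p = 0.0244 by edgeR). The call was lost by DESeq2 (adjusted p = 0.144) and on leaving out any of 4 of the 6 libraries (control replicates 1 and 3 and knockdown replicates 1 and 2, adjusted p = 0.0539 to 0.0835 by edgeR). The gene maps to chromosome 17 (81245000 to 81295547, minus strand). SLC38A9, a lysosomal arginine sensor that acts on mTORC1, had 33.7 ± 2.16 CPM in knockdown and 31.0 ± 2.17 CPM in control (SD, n = 3 each; adjusted p = 0.267 by edgeR). The lysosomal glutamine carrier SLC38A7 had 75.6 ± 1.06 CPM in knockdown and 71.5 ± 4.68 CPM in control (adjusted p = 0.217 by edgeR). SLC38A6 and SLC38A3 had log2 fold changes of 0.17 (SE 0.0925) and −0.15 (SE 0.344), and neither passed.

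Of the proton-coupled SLC36 carriers, SLC36A1 rose and SLC36A4 did not pass. SLC36A1 (PAT1), which exports small amino acids from lysosomes, had 20.7, 18.3 and 20.0 CPM in knockdown replicates 1 to 3, against 15.3, 16.7 and 17.5 CPM in control replicates 1 to 3. The groups lay close without overlap, with a log2 fold change of 0.27 (SE 0.0991, adjusted p = 0.0364 by edgeR). The call was lost by DESeq2 (adjusted p = 0.182) and on leaving out any of 4 libraries (control replicates 1 and 2 and knockdown replicates 1 and 3, adjusted p = 0.0571 to 0.182 by edgeR). SLC36A1 maps to chromosome 5 (151437046 to 151492381, plus strand). SLC36A4 (PAT4) had 68.4 ± 2.07 CPM in knockdown and 74.6 ± 1.46 CPM in control (SD, n = 3 each). Its libraries did not overlap, yet it missed the threshold (adjusted p = 0.0509 by edgeR).

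In the SLC43 family 0 of 3 tested genes passed by edgeR without a covariate or by DESeq2, with all 6 libraries. Of the 3, only SLC43A3 had an unadjusted p under 0.05 by edgeR without a covariate. SLC43A1 (LAT3) and SLC43A2 (LAT4), which carry large neutral amino acids without a heavy chain, had log2 fold changes of −0.11 (SE 0.149) and 0.00 (SE 0.0711). SLC43A3, now known as a purine nucleobase carrier, had 29.5 ± 2.36 CPM in knockdown and 33.6 ± 2.87 CPM in control (SD, n = 3 each; adjusted p = 0.0984 by edgeR). It was called lower without control replicate 1 (log2 fold change −0.26, adjusted p = 0.028 by edgeR) and without knockdown replicate 3 (−0.24, adjusted p = 0.0358 by edgeR). With all 6 libraries and the replicate number as a block it was also called lower (−0.19, adjusted p = 0.0408 by edgeR). Of its exon bases 29.9% are shared with another gene on the same strand.

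Levels were compared between genes per kilobase of exon. SLC1A5 stood highest, at 64.4 ± 5.23 CPM per kb in knockdown and 64.6 ± 3.51 CPM per kb in control (SD, n = 3 each). SLC38A2 followed at 56.1 ± 1.41 CPM per kb in knockdown and 63.2 ± 0.966 CPM per kb in control, and in control its spread overlapped that of SLC1A5. SLC7A5 came next at 45.9 ± 6.72 CPM per kb in knockdown and 44.1 ± 2.22 CPM per kb in control. SLC3A2 had 39.5 ± 1.31 CPM per kb in knockdown, within the spread of SLC7A5, and 34.5 ± 1.31 CPM per kb in control. SLC7A1 and SLC7A8 had 28.2 and 25.6 CPM per kb in knockdown, and 29.3 and 23.9 CPM per kb in control. In knockdown SLC6A8, SLC7A11 and SLC38A1 came after them at 23.7, 22.1 and 19.5 CPM per kb, while in control the order was SLC38A1, SLC6A8 and SLC7A11 at 20.1, 19.7 and 18.5 CPM per kb. In knockdown the SD of SLC7A11 overlapped those of SLC6A8 and SLC38A1, and in control the SD of SLC6A8 overlapped those of SLC38A1 and SLC7A11. The lowest of the 31 tested genes were SLC6A12 and SLC38A3, under 1 CPM per kb in both groups.

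**Figure D3:**
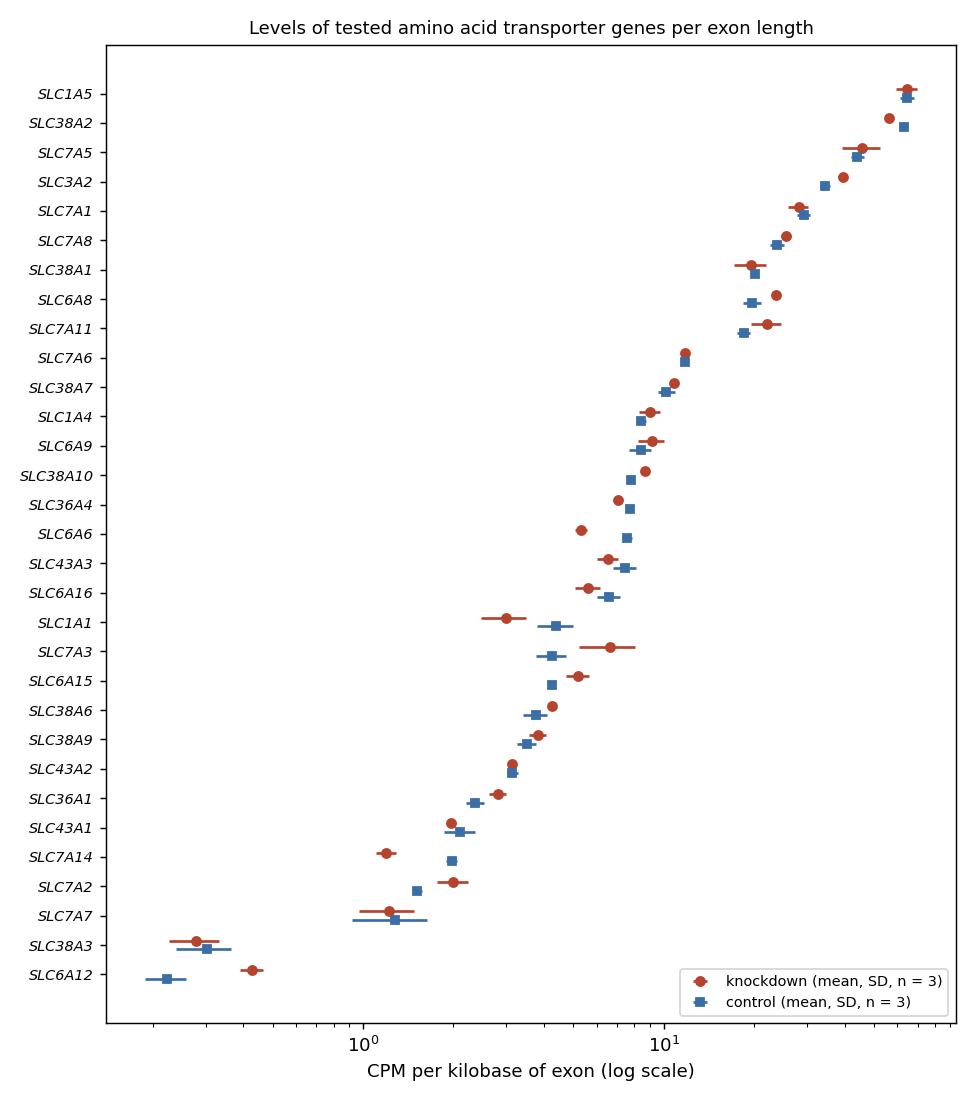
Mean CPM per kilobase of exon (log scale) of the 31 tested transporter genes with SD over 3 libraries, knockdown in red and control in blue, sorted by the control level. SLC1A5, SLC38A2, SLC7A5 and SLC3A2 lead in both groups.

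The knockdown libraries differed among themselves across the transporter genes. Knockdown replicate 3 had the highest level of the 3 knockdown libraries for 20 of the 31 tested genes, against 5 for replicate 1 and 6 for replicate 2. The levels of the 31 genes summed to 2550, 2576 and 2807 CPM in knockdown replicates 1 to 3, against 2537, 2634 and 2649 CPM in control replicates 1 to 3. Without knockdown replicate 3, 7 transporter genes were called higher and 6 lower, in place of 9 and 4. The counts were the same without control replicate 1, and 7 and 5 without knockdown replicate 2, so this shift was not particular to knockdown replicate 3. How often knockdown replicate 3 was highest over all tested genes was not counted. It had the highest level of the 3 knockdown libraries for 27 of 30 tested genes of the ATF4 amino acid response.

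That list holds known ATF4 targets and ATF4 itself. Like the lists below, it was chosen with earlier results of these data known, so its called shares are a description. Of its 30 tested genes 15 rose, 2 fell and 13 did not pass. The higher genes were 50% of the list, against 15.3% of all tested genes, and the lower genes 6.67%, against 18.1%. The median log2 fold change of the list was 0.22, against 0 over all tested genes. Asparagine synthetase (ASNS) had 248, 238 and 279 CPM in knockdown replicates 1 to 3, against 179.9, 179 and 187 CPM in control replicates 1 to 3 (log2 fold change 0.49, adjusted p = 4.02e-09 by edgeR). MTHFD2, an enzyme of mitochondrial one-carbon metabolism, had 215, 212 and 239 CPM in knockdown replicates 1 to 3, against 171, 177 and 163 CPM in control replicates 1 to 3. ATF3 (log2 fold change 0.42) and CHAC1 (0.74), a transcription factor and an enzyme that degrades glutathione, also rose, while ATF4 did not pass (−0.04, adjusted p = 0.533 by edgeR). The 2 genes that fell were GDF15 (log2 fold change −0.34, adjusted p = 2.72e-05 by edgeR) and BCAT1 (−0.15, adjusted p = 0.0105 by edgeR). Without knockdown replicate 3, 12 genes of the list were called higher, and without control replicate 2 also 12. Leaving out knockdown replicate 1 or 2 gave 1 lower gene. The summed level of the list was 3776 to 4193 CPM in knockdown and 3565 to 3658 CPM in control.

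Of 9 kinases and regulators of eIF2, EIF2AK2 (PKR), an interferon-induced kinase, rose with a log2 fold change of 1.24 (adjusted p = 2.09e-19 by edgeR). EIF2AK4, which encodes the amino acid sensor GCN2, fell to 112 ± 6.04 CPM in knockdown, against 131 ± 1.04 CPM in control (SD, n = 3 each; log2 fold change −0.23, adjusted p = 0.000308 by edgeR). IMPACT, an inhibitor of GCN2 activation, also fell (log2 fold change −0.37, adjusted p = 2.37e-06 by edgeR). The other 6 did not pass, so that 33.3% were called, the same share as among all tested genes (33.3%), and 2 genes of this list were called higher without knockdown replicate 1.

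Of 36 tested genes of amino acid sensing by mTORC1, 14 rose, 4 fell and 18 did not pass (median log2 fold change 0.10). The higher genes were 38.9% of the list, against 15.3% of all tested genes, and the lower genes 11.1%, against 18.1%. LAMTOR1, which anchors the Ragulator complex to lysosomes, fell to 51.0 ± 1.57 CPM in knockdown, against 77.8 ± 4.21 CPM in control (SD, n = 3 each; log2 fold change −0.60, adjusted p = 4.64e-10 by edgeR). NPRL3, a subunit of GATOR1, also fell (log2 fold change −0.37, adjusted p = 5.27e-06 by edgeR). FLCN (folliculin) and the leucine sensor SESN2, which is also on the ATF4 list, rose with log2 fold changes of 0.29 and 0.31. Without knockdown replicate 1, 7 genes of the list were called higher and 2 lower.

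Of 16 tested genes of glutathione synthesis and NRF2 targets, which bear on the use of cystine brought in by xCT, 5 rose, 1 fell and 10 did not pass (median log2 fold change 0.08). The share called, 37.5%, was near the 33.3% of all tested genes. OSGIN1 and HMOX1, both low, rose with log2 fold changes of 1.18 and 0.92, and the reductases TXNRD1 and SRXN1 with 0.27 and 0.23. GCLM, a subunit of the enzyme that starts glutathione synthesis, fell (log2 fold change −0.26, adjusted p = 0.0138 by edgeR), and no gene of this list was called lower without control replicate 2, knockdown replicate 1 or knockdown replicate 2. Of 15 tested amino acid carriers of other SLC families, 2 rose, 1 fell and 12 did not pass (median log2 fold change 0.06), so that 20.0% were called, against 33.3% of all tested genes. SLC15A3, a lysosomal histidine and peptide carrier known as interferon-inducible, had 28.4 ± 2.56 CPM in knockdown and 12.7 ± 1.96 CPM in control (SD, n = 3 each; log2 fold change 1.19, adjusted p = 2.79e-10 by edgeR). SLC25A22, a mitochondrial glutamate carrier, rose with a log2 fold change of 0.21, a call lost without control replicate 1 (adjusted p = 0.0838 by edgeR) and without knockdown replicate 2 (adjusted p = 0.0659 by edgeR). SLC25A44, the mitochondrial carrier of branched-chain amino acids, fell (log2 fold change −0.19), and no gene of the list was called lower without control replicate 1, control replicate 2 or knockdown replicate 2.

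**Figure D4:**
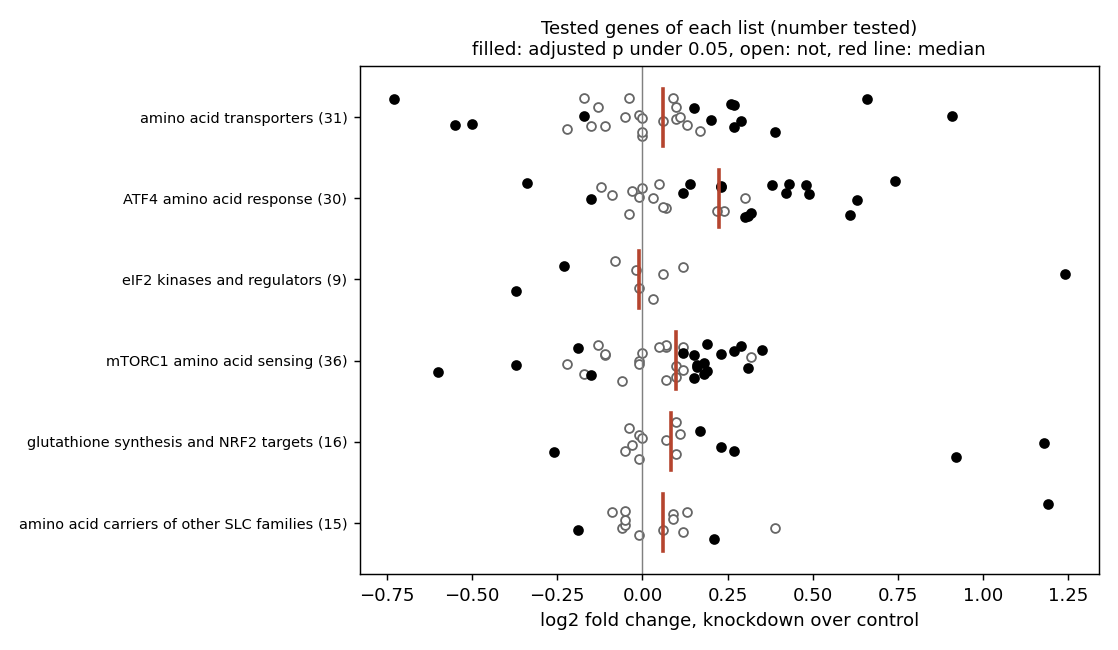
Log2 fold changes, knockdown over control, of the tested genes of the transporter set and of the 5 pathway lists. Filled points passed the test and the red line is the median, which is 0.06 for the transporters and 0.22 for the ATF4 amino acid response.

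Markers of other cell types were read beside these results, against 15.3% of all tested genes called higher and 18.1% lower. Of 5 oligodendrocyte lineage markers 3 were tested and OLIG1 fell, and the summed level of the 5 was 17.3 to 21.2 CPM in knockdown and 24.1 to 25.3 CPM in control. The 4 tested neuron markers of 7 had adjusted p of 0.0586 (TUBB3) to 0.625 (SNAP25) by edgeR. The summed level of the 7 was 643 to 672 CPM in knockdown and 690 to 738 CPM in control, without overlap. Taken singly, 44.3% of all tested genes also had no overlap between the groups. Most of that sum was MAP2, at 489 to 504 CPM in knockdown and 519 to 562 CPM in control, which did not pass. DCX, too low to be tested, had 31 counts in knockdown and 20 in control. Of 5 astrocyte markers 3 were tested, GJA1 rose and S100B fell, and the summed level was 350.2 to 371 CPM in knockdown and 352 to 366 CPM in control. Fibroblast markers summed to 151 to 169 CPM in knockdown and 175 to 192 CPM in control, and of the 5 tested COL1A1 rose and PDGFRB and LUM fell. Of 5 leukocyte markers 1 was tested and it did not pass. The part of such cells in the transporter results was not tested.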

How the data were processed

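RNA was sequenced from 6 AF22 libraries, 3 knockdown and 3 control, grouped by sample title, each from 700 ng of total RNA with a directional kit, per the labels' protocols. Per the submitters' processing notes, the tools were STAR 2.7.10a, Trim Galore 0.6.6 and bedtools, on the build hg38. How reads were counted, with which strand setting and annotation, is not given in the sources used here. For each library the authors deposited raw read counts per gene symbol.

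Genes were filtered with filterByExpr, which kept 13632 symbols holding at least 99.858% of each library's counts, and scaled by TMM (factors 0.9797 to 1.0151). Knockdown was compared with control by the quasi-likelihood test of edgeR 4.0.16 (R 4.3.3) with no covariate, adjusted by Benjamini-Hochberg over all tested genes at a threshold of 0.05. The SE is the size of the log2 fold change over the square root of F. CPM are TMM-scaled, as mean ± SD over 3 libraries, and floors cover counting error only. Exon lengths, coordinates and 3′ UTRs came from GENCODE release 29, where all 58 symbols matched, and promoters from RefSeq. Figures used Python 3.11.15 and Matplotlib 3.10.9.

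The members, gene lists and alternatives were chosen with earlier results of these data known. All tested members, COMMD3, and from each list up to 4 called genes, by smallest adjusted p, were named by rule, and other genes named in the text were chosen after their values were seen. A marker of the oligodendrocyte lineage list was left out of that list and is not reported here. The test was first tested on simulated data. It recovered 43.8% of the genes changed by 1.2-fold, 80% of those changed by 1.5-fold and 94% of those changed by 2-fold. Of 171 calls in the simulation 13 were false. Far fewer genes were called there than in the deposited data, so these shares need not hold for the latter. Each pair of deposited replicates differed by more than sampling noise (chi-square 1.23 to 1.994 per degree of freedom). Alternatives were scaling by library size, RLE or upper quartile, no filter or 1 CPM in 3 libraries, DESeq2 1.42.0 on all genes, limma-voom (limma 3.58.1), the replicate number as a block, each library left out, and an adjusted p under 0.01.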

Additional observations from a re-analysis of the deposited data

How the results depend on the processing

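Of the 13 called transporter genes, 9 kept their call under all 14 alternatives, and SLC7A2, SLC6A12, SLC36A1 and SLC38A10 lost it under some. None of the 13 changed direction. Of the 18 transporter genes that did not pass, 12 were called under none of the alternatives and 6 gained a call under some. These were SLC7A8 and SLC6A9, called higher, and SLC6A16, SLC36A4, SLC43A3 and SLC38A1, called lower. The replicate block called SLC7A8 (0.10), SLC6A16 (−0.22), SLC36A4 (−0.13) and SLC43A3 (−0.19), library-size scaling called SLC7A8 (0.12, all log2 fold changes), and the other such calls came with 1 library left out. DESeq2 called 5 transporter genes higher and 4 lower, and 2743 genes in all, 1100 of them higher. At an adjusted p under 0.01, 6 transporters were higher and 4 lower, and 2943 genes were called, 1224 higher. Leaving out 1 library in turn gave 7 to 8 transporters higher and 4 to 6 lower, and 3608 to 4297 genes called. COMMD3 stayed lower throughout. Deviations from the group mean in knockdown replicates 1 and 3 correlated best with the control replicate of the same number (0.124 and 0.145). Those of knockdown replicate 2 correlated best with control replicate 3 (0.032, against 0.021 with control replicate 2). Such weak correlations do not settle whether the replicate numbers pair the samples. Under the replicate block 10 transporters were higher and 7 lower, and 5248 genes were called. In the lists, DESeq2 gave 7 higher and 2 lower mTORC1 genes, 0 lower glutathione genes, and 1 higher and 0 lower among the other carriers. At an adjusted p under 0.01 there were 1 lower ATF4 gene, 6 higher mTORC1 genes, and 0 lower glutathione genes and other carriers. With 1 library left out, lower ATF4 genes ranged from 1 to 3, higher eIF2 genes from 1 to 2, mTORC1 genes from 7 to 13 higher and 2 to 5 lower, lower glutathione genes from 0 to 1, and other carriers from 1 to 3 higher and 0 to 1 lower.

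Only transporter genes that did not pass changed sign. With 1 library left out, log2 fold changes ranged from −0.06 to 0.14 for SLC7A5, −0.01 to 0.01 for SLC7A6, −0.21 to 0.20 for SLC7A7, −0.06 to 0.05 for SLC1A5, −0.19 to 0.01 for SLC43A1, −0.03 to 0.03 for SLC43A2, −0.14 to 0.02 for SLC38A1 and −0.31 to 0.06 for SLC38A3. With upper-quartile scaling SLC7A6 and SLC7A7 were at 0.00, with library-size scaling both were at 0.01, and with limma-voom SLC7A7 was at 0.02 and SLC1A5 at 0.00. Under the replicate block SLC1A5 and SLC43A2 were at 0.00. The cause of these changes was not tested. A gene that did not pass may still differ by an amount too small to be detectable at this depth and number of libraries.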
